A study of Mus musculus with 6 samples.

Results

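Nuclear receptor coactivators and corepressors are proteins that ligand-regulated transcription factors such as PPARγ recruit to switch their target genes on or off. The 9 genes described here were taken by symbol from a list written with earlier results of these data known, and all 9 were found among the 24421 gene symbols. All 9 also had enough reads to be among the 12766 genes tested. They were 3 steroid receptor coactivators (*Ncoa1*, *Ncoa2*, *Ncoa3*), the Mediator subunit *Med1*, the PGC-1 coactivators *Ppargc1a* and *Ppargc1b*, the steroid receptor RNA activator *Sra1*, and *Ncor1* and *Gps2* of the NCoR complex.

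The cells were 3T3-L1, an established mouse line that accumulates lipid as it differentiates, labelled with the strain C57BL/6. They were differentiated with insulin (870 nM), TZD (5 µM), Dex (1 µM) and IBMX (500 µM) in medium with 10% CS, and Dex and IBMX were withdrawn on day 3, whereas insulin and TZD stayed for the rest of the differentiation of both groups. On day 7 the adipocytes received 100 pfu/cell of adenovirus. It carried LacZ in the control group (AdLacZ, 3 libraries) or a codon-optimized murine *Lmo3* in the other (Ad*Lmo3*, 3 libraries). RNA was taken 72 h later. The labels give only a replicate number for each library, and whether the replicates of a group came from separate infections is not stated. TZD is the study's abbreviation for troglitazone, a ligand of PPARγ, and Dex (dexamethasone) is a ligand of the glucocorticoid receptor, so ligands of receptors that use these coregulators were part of the protocol in both groups.

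Libraries held between 28035639 and 38332335 reads on genes. *Lmo3* itself was counted 0 times in every library, where 3 counts would be 0.0767 to 0.111 CPM, and since the viral sequence was codon-optimized the group labels could not be checked through it. The adipocyte markers listed for this check (10 genes, among them *Adipoq*, *Plin1* and *Fabp4*) summed to 19370 to 21590 CPM in the control group and 26010 to 31860 CPM with *Lmo3*, without overlap. The preadipocyte and fibroblast markers (8 genes) summed to 8338 to 10870 and 7723 to 10920 CPM, which overlapped. Of 6 macrophage markers, *Ptprc*, *Adgre1* and *Itgam* had at most 3 counts in any library, as had *Ucp1*, *Zic1* and *Lhx8* of 6 brown adipocyte markers. The others of both lists had more, with up to 163 counts of *Cd68* and 575 of *Cidea*. The macrophage list summed to 4.60 to 5.855 CPM in the control group and 3.17 to 5.22 CPM with *Lmo3*. The brown adipocyte list summed to 7.36 to 16.9 and 9.11 to 13.8 CPM. The endothelial markers, 5 genes, summed to at most 2.38 CPM. In such bulk RNA, fewer cells of a type and less RNA per cell cannot be told apart.

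The p160 proteins encoded by *Ncoa1*, *Ncoa2* and *Ncoa3* (also called SRC-1, SRC-2 and SRC-3) bind the ligand-occupied receptor through short leucine-rich motifs and bring in acetyl- and methyltransferases that open chromatin. MED1 is the Mediator subunit that links receptors to RNA polymerase II, and the PGC-1 proteins dock on PPARs and estrogen-related receptors and are best known for driving mitochondrial gene programs in fat and muscle. Receptors without an activating ligand can instead hold a complex of NCoR1 with HDAC3, TBL1 proteins and GPS2, which removes acetyl groups from histones. In white adipocytes the balance between both kinds of cofactor helps to set how strongly PPARγ acts on its targets.

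*Ncoa1* is the coregulator that the study knocked down with an siRNA and followed by Q-PCR, and the sequences show which part of the gene these reagents read. They are given 5′ to 3′, and the capitals in the siRNA strands mark the stretch that is identical to the mRNA (sense) or complementary to it (antisense), while the lower-case ends are overhangs.
Q-PCR forward primer: gggagtgccagcataaaactg
Q-PCR reverse primer: ggtagcgtaggagctgatggt
siRNA sense strand: CAGAUUGCCUGAACUAGAAtt
siRNA antisense strand: UUCUAGUUCAGGCAAUCUGct
Matched to the GENCODE transcripts of GRCm38, both primers lie in coding sequence of *Ncoa1* on chromosome 12, the forward primer from 4295129 to 4295149 and the reverse primer from 4295074 to 4295094, in exon 12 of the 23 exons of transcript ENSMUST00000085814.4, and span 76 bp. The siRNA target crosses the junction of exons 13 and 14, with 2 bases in exon 13 (4290814 to 4290815) and 17 bases in exon 14 (4278203 to 4278219). Each of the 4 sequences matched 3 of the 7 coding transcripts of *Ncoa1* and no transcript of another gene. The counts analysed here add the reads of all transcripts of a symbol and do not separate these.

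RefSeq promoter sequences were matched for 5 of the 9 genes. The 250 bases before the start of *Ncoa1* were 85.6% G and C and held 40 CpG dinucleotides, against a median of 52.4% and 6 over the 32851 promoters of the table. *Ppargc1a*, known for expression that follows tissue and stimulus, had 48.0% and 5. *Gps2* and *Med1* had 17 and 18 CpGs, and of 2 *Ncor1* promoters one had 34 and the other 2. The promoters of *Ncoa1* (GRCm38.p6, chr12:4477183-4477432, minus strand) and *Ppargc1a* (chr5:51567726-51567975, minus strand) are shown because they stand at the ends of this range of CpG content among the genes with a single promoter. Capitals mark GGGCGG, the GC box, in *Ncoa1* and TGACG, a cAMP response element half-site, in *Ppargc1a*, searched on both strands.
Ncoa1: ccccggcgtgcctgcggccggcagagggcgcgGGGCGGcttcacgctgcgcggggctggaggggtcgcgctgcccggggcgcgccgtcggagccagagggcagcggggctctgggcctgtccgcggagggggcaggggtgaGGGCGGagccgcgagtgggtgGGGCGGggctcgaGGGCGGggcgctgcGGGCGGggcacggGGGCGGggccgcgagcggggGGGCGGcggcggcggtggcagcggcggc
Ppargc1a: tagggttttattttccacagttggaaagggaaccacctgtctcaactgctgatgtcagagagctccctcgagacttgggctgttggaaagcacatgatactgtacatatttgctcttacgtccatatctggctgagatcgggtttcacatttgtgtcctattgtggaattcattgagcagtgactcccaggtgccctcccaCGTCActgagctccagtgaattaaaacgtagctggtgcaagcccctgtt
GGGCGG occurred 7 times in the *Ncoa1* window and in 32.7% of all promoters. TGACG occurred once in the *Ppargc1a* window, on the opposite strand (CGTCA), and in 17.8% of all promoters. AGGTCA, the half-site that many nuclear receptors bind, is in none of the 6 member windows and in 4607 of the 32851 promoters. These matches describe letters only.

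All 9 genes are annotated in GRCm38. *Ncoa1* spans chromosome 12 from 4247362 to 4477182, *Ncoa2* chromosome 1 from 13139105 to 13374083, and *Ncoa3* chromosome 2 from 165992636 to 166073242. *Ncor1* (62316426 to 62458541), *Med1* (98152154 to 98193293) and *Gps2* (69913888 to 69916591) all lie on chromosome 11. *Ppargc1a* spans chromosome 5 from 51454250 to 51567726, and *Ppargc1b* (61298136 to 61400431) and *Sra1* (36666681 to 36670815) lie on chromosome 18. *Ncoa3* had the largest exon overlap with a gene on the opposite strand, 1.95% of its exon length with *Sulf2*, and at most 1% of the stretches of read length in any member occurred in another gene. Few reads could therefore be shared among the members or with neighbouring genes.

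Ad*Lmo3* against AdLacZ libraries asked which coregulator mRNAs differ when LMO3 is overexpressed in adipocytes. None of the 9 had an adjusted p-value under 0.05 in edgeR's quasi-likelihood test, against 4.28% of all tested genes (2.71% with higher and 1.57% with lower values under *Lmo3*). With library size scaling in place of TMM the same split over all tested genes was 266 higher and 501 lower, and still none of the 9 passed. Of the 9 genes 3 had an unadjusted p under 0.05, against 20.6% of all tested genes. DESeq2, the program the study used, called 1 of the 9 (*Ppargc1b*), against 1110 of the 12766 tested genes. Values did not overlap between groups in 3 of the 9, *Ppargc1b*, *Med1* and *Sra1*, against 26.5% of all tested genes. Their median log2 fold change was -0.01, beside 0.00 over all tested genes, with 4 above and 5 below zero. The median absolute log2 fold change was 0.07, beside 0.13 over all tested genes. All 9 lay between 394 and 13255 counts per library.

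**Figure D1:**
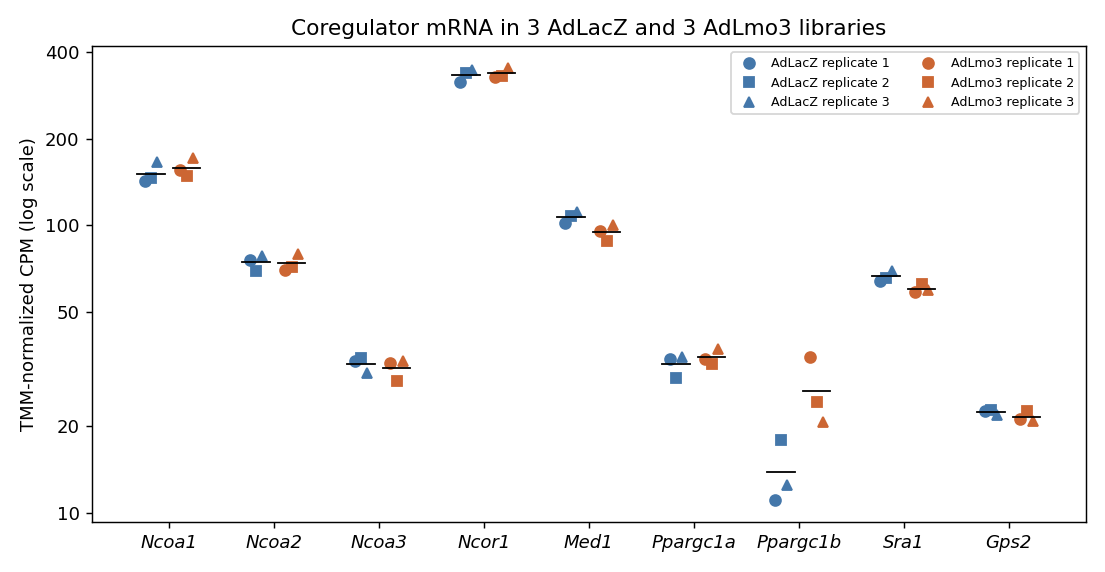
TMM-normalized CPM on a log scale of the 9 coregulator genes, with 1 point per library (blue AdLacZ, orange AdLmo3, symbol by replicate number) and a bar at each group mean. *Ppargc1b* has the largest ratio of group means, from 11.1 to 17.9 CPM in the control group and from 20.7 to 34.8 CPM in AdLmo3 libraries.

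*Ncoa1* (SRC-1) was the most highly counted of the p160 genes. It had 142, 146 and 166 CPM in AdLacZ replicates 1, 2 and 3 and 155, 148 and 172 CPM in Ad*Lmo3* replicates 1, 2 and 3. The groups overlapped, with replicate 3 the highest in both. The means were 151 ± 12.5 CPM in the control group and 158 ± 11.96 CPM with *Lmo3* (SD, n = 3 each). The log2 fold change was 0.07, with a standard error of 0.0861 and a 95% interval from -0.13 to 0.26, and edgeR gave an adjusted p of 0.723. On the linear scale this is a fold change of 1.05 between 0.913 and 1.201. With library size scaling in place of TMM the log2 estimate was -0.01.

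*Ncoa2* (SRC-2, GRIP1) had 75.9, 69.2 and 78.0 CPM in the control group and 70.1, 71.7 and 79.4 CPM with *Lmo3*. *Ncoa3* (SRC-3), which in other tissues is best known as an amplified gene of breast cancer, had 33.6, 34.6 and 30.6 CPM in the control group and 33.2, 28.7 and 33.8 CPM with *Lmo3*. The groups overlapped for both genes. The log2 fold change of *Ncoa2* was -0.01 (95% interval -0.18 to 0.16, adjusted p = 0.953) and that of *Ncoa3* -0.05 (95% interval -0.25 to 0.15, adjusted p = 0.817), both from edgeR. The sign of both turned when single libraries were left out, *Ncoa3* without Ad*Lmo3* replicate 2 alone.

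*Ppargc1b* encodes PGC-1β, a coactivator of estrogen-related receptors and SREBPs that is known for mitochondrial and lipogenic gene programs. It had 11.1, 17.9 and 12.5 CPM in AdLacZ replicates 1, 2 and 3 and 34.8, 24.3 and 20.7 CPM in Ad*Lmo3* replicates 1, 2 and 3. Every Ad*Lmo3* library was above every AdLacZ library, although the lowest Ad*Lmo3* value and the highest AdLacZ value were close. The means were 13.8 ± 3.59 and 26.6 ± 7.35 CPM (SD, n = 3 each). The log2 fold change was 0.94 (standard error 0.228, 95% interval 0.42 to 1.47), a fold change of 1.92 between 1.34 and 2.77.

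The unadjusted p of *Ppargc1b* was 0.00312 and its adjusted p 0.0610 (edgeR), just above the threshold. It passed with DESeq2 (adjusted p = 0.000198), when no filter on low counts was applied (0.0176), and without Ad*Lmo3* replicate 3 (0.0419), and its adjusted p ranged from 0.000198 to 0.220 over the 14 alternatives. Its log2 fold change stayed positive in all 14, between 0.70 without Ad*Lmo3* replicate 1 and 1.18 without AdLacZ replicate 2. Its spread was also the widest of the 9 genes, with a coefficient of variation of 26.0% in AdLacZ and 27.6% in Ad*Lmo3* libraries, where the median tested gene had 7.92% and 7.85%. The summed adipocyte markers moved with the group as well, as given above, and their part in the difference was not tested.

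*Ppargc1a*, which encodes PGC-1α, the inducible relative that cold and cAMP raise in brown fat, is a close relative of this gene. It had 34.3, 29.4 and 34.9 CPM in the control group and 34.3, 32.8 and 37.1 CPM with *Lmo3*. The groups overlapped. The log2 fold change was 0.08 ± 0.0876 (standard error), the 95% interval ran from -0.12 to 0.28, and edgeR gave an adjusted p of 0.668. Per kb of exon, the ratio of *Ppargc1a* to *Ppargc1b* was 1.88, 0.994 and 1.69 in AdLacZ and 0.596, 0.818 and 1.09 in Ad*Lmo3* replicates 1, 2 and 3. Such a ratio within a library does not depend on scaling between libraries. It differed by -0.86 on the log2 scale, where the SD of the log2 ratio was 0.490 in AdLacZ and 0.433 in Ad*Lmo3* libraries. The groups overlapped (exact two-sided permutation p = 0.2, where 0.1 is the smallest possible with 3 against 3). A test with so few arrangements cannot decide whether the ratio changed.

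**Figure D2:**
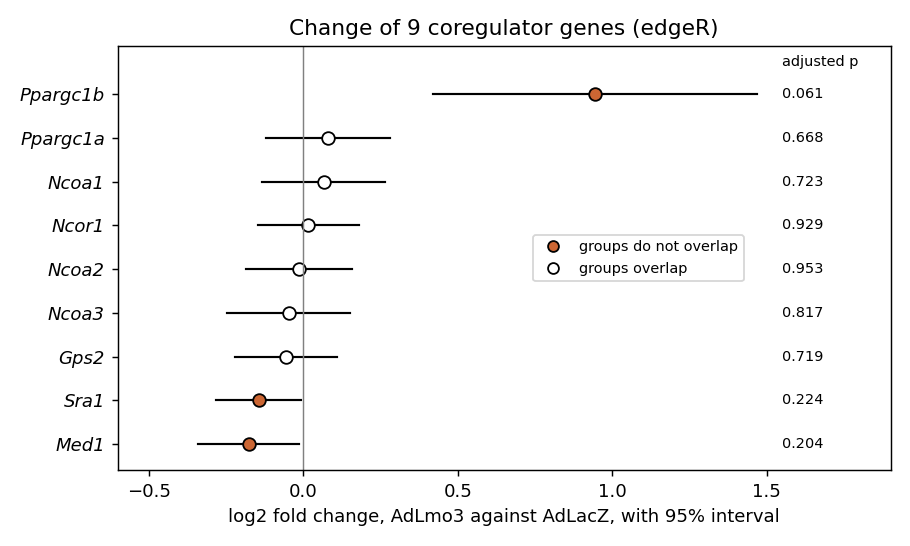
Log2 fold change of AdLmo3 against AdLacZ libraries for the 9 genes (points) with 95% intervals (lines), filled where the groups do not overlap, and edgeR's adjusted p at the right. *Ppargc1b* stands at 0.94, and the other 8 genes lie between -0.18 and 0.08.

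*Med1* (TRAP220), the Mediator subunit that PPARγ contacts and that adipogenesis requires, had 102, 107 and 111 CPM in the control group and 95.2, 88.4 and 99.9 CPM with *Lmo3*. All Ad*Lmo3* values were below all AdLacZ values, by a small margin. The log2 fold change was -0.18 (standard error 0.0707, 95% interval -0.34 to -0.01), with an unadjusted p of 0.0366 and an adjusted p of 0.204 (edgeR). It kept its sign in all 14 alternatives, between -0.25 and -0.13, and passed the threshold in none.

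*Sra1* is unusual in that its transcript acts as a coactivator RNA and also encodes a protein. It had 64.1, 65.8 and 69.2 CPM in the control group and 58.5, 62.4 and 59.4 CPM with *Lmo3*. Again the groups did not overlap, with the lowest AdLacZ library at 64.1 and the highest Ad*Lmo3* library at 62.4 CPM. The log2 fold change was -0.14 (standard error 0.0598, 95% interval -0.28 to -0.01), with an unadjusted p of 0.0434 and an adjusted p of 0.224 (edgeR). It was negative in all 14 alternatives, between -0.22 and -0.11.

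On the repressor side, *Ncor1* was the most highly counted of the 9 genes. It had 314, 339 and 347 CPM in the control group and 328, 330 and 353 CPM with *Lmo3*, which overlapped. Its log2 fold change was 0.02 ± 0.0707 (standard error), the 95% interval ran from -0.15 to 0.18, and edgeR gave an adjusted p of 0.929, and the sign turned under library size scaling and when single libraries were left out. *Gps2*, which encodes a small subunit that binds NCoR1 and TBL1, had 22.6, 22.7 and 21.8 CPM in the control group and 21.3, 22.5 and 20.8 CPM with *Lmo3*. Its log2 fold change was -0.06 (95% interval -0.22 to 0.11, adjusted p = 0.719 from edgeR), and it had the smallest spread of the 9 genes in AdLacZ libraries, 2.23%.

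The levels of the 9 genes were compared with each other only per kb of exon. In AdLacZ libraries the order was *Sra1* (29.1 ± 1.14 CPM per kb), *Ncor1* (26.0 ± 1.34), *Ncoa1* (17.6 ± 1.46), *Gps2* (13.9 ± 0.311), *Med1* (12.2 ± 0.569), *Ppargc1a* (4.99 ± 0.460), *Ncoa2* (4.75 ± 0.291), *Ncoa3* (4.17 ± 0.265) and *Ppargc1b* (3.47 ± 0.9), all mean ± SD of 3 libraries. Neighbours in this order had non-overlapping ranges except *Ppargc1a* and *Ncoa2*, and *Ncoa3* and *Ppargc1b*. The median tested gene had 6.28 CPM per kb, so that 5 members were above it and 4 below. *Ncoa1* was thus the p160 gene with the highest level, and its ratio to *Ncoa2* per kb was 3.42 to 3.88 in AdLacZ and 3.77 to 4.04 in Ad*Lmo3* libraries.

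In Ad*Lmo3* libraries *Ppargc1b* (6.67 ± 1.84 CPM per kb) stood next below *Med1* and before *Ppargc1a* (5.27 ± 0.335), with overlapping ranges of the 2 PGC-1 genes. *Sra1* (26.4 ± 0.885) and *Ncor1* (26.3 ± 1.10) overlapped as well. The order depends on the length used. Taking the longest transcript in place of all exons raised *Ncoa2* to 9.10 CPM per kb, above the median tested gene (8.71 on that scale, with 6 members above it and 3 below), and placed *Ncor1* (36.9) above *Sra1* (33.5). On that scale the ratio of *Ncoa1* to *Ncoa2* was lower, 2.09 to 2.37 in AdLacZ and 2.31 to 2.47 in Ad*Lmo3* libraries.

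**Figure D3:**
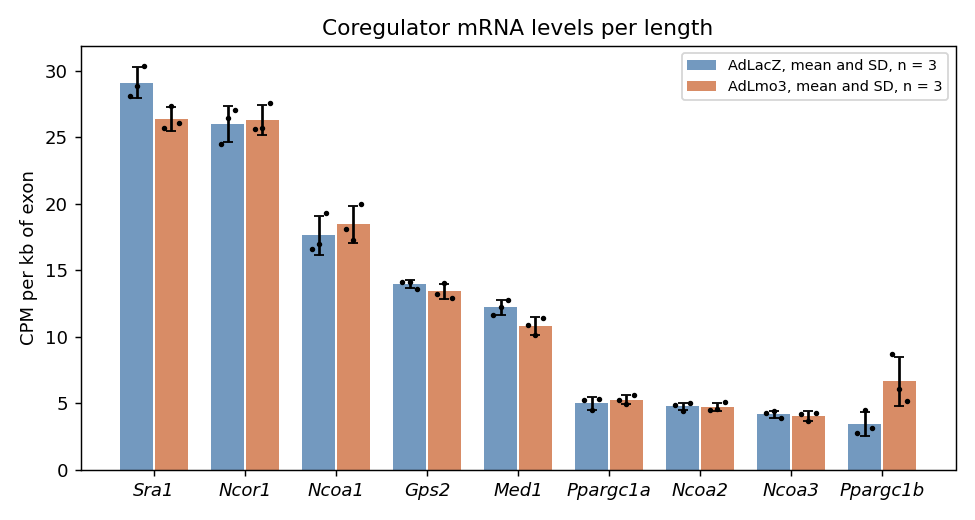
TMM-normalized CPM per kb of exon, with bars for the group means, error bars for the SD of 3 libraries and points for single libraries. *Sra1*, *Ncor1* and *Ncoa1* stand highest, from 17.6 to 29.1 in AdLacZ, and *Ppargc1b* is the lowest in AdLacZ at 3.47.

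The balance of coactivator to corepressor mRNA was read as a ratio within each library. *Ncoa1* to *Ncor1* per kb was 0.677, 0.643 and 0.714 in AdLacZ and 0.706, 0.673 and 0.726 in Ad*Lmo3* replicates 1, 2 and 3. This is a log2 difference of 0.05 with overlapping groups (exact two-sided permutation p = 0.5). The 7 coactivator genes summed against *Ncor1* and *Gps2* gave 1.901, 1.87 and 1.96 in AdLacZ and 1.99, 1.86 and 1.92 in Ad*Lmo3* libraries, a log2 difference of 0.01 (exact two-sided permutation p = 0.8). Both log2 differences were smaller than the SD of the log2 ratio within either group. In the sum of coactivators *Sra1* weighs most (29.1 CPM per kb in AdLacZ) and *Ppargc1b* least (3.47). The summed ratio therefore says little about *Ppargc1b* alone. In all 4 ratios were compared, *Ncoa1* to *Ncoa2* included (exact two-sided permutation p = 0.4), and their Benjamini-Hochberg adjusted p-values were 0.667 for 3 of them and 0.8 for the summed ratio.

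Within the groups, replicate 3 was the highest library for 6 of the 9 genes in AdLacZ and again for 6 of the 9 in Ad*Lmo3*. The same libraries had the lowest sums of preadipocyte and fibroblast markers in their groups (8338 and 7723 CPM). Ad*Lmo3* replicate 3 also had the fewest reads on genes (28035639) and the largest share on no gene (8.94%). How often other tested genes were highest in replicate 3 was not counted. *Ppargc1b* departed from the pattern of replicate 3 in both groups, with its highest values in AdLacZ replicate 2 and Ad*Lmo3* replicate 1. *Gps2* departed in both as well, being highest in replicate 2 of each group. *Ncoa3* departed in AdLacZ only and *Sra1* in Ad*Lmo3* only. The part of the replicate or of these marker sums in the spread of the members was not tested. Measured by the root mean square difference of centred log2 CPM over the 6 libraries, the genes most like *Ncoa1* were *Wdr60* (0.0201), *Gpatch2* (0.0287) and *Nufip2* (0.0291), and those most like *Ppargc1a* were *Bhlhb9* (0.0209), *Tmed5* (0.0226) and *Zfp874a* (0.0230).

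The enzymes that p160 proteins recruit were read as a list of their own. Of 8 acetyl- and methyltransferase genes none passed with edgeR or DESeq2, and none had an unadjusted p under 0.05 in edgeR. Over all tested genes the edgeR shares were 4.28% and 20.6%. The median log2 fold change of the list was 0.05. *Crebbp* (CBP) had 54.2 ± 5.97 and 56.5 ± 7.25 CPM and *Ep300* (p300) 96.7 ± 11.3 and 99.9 ± 7.55 CPM in the control group and Ad*Lmo3* libraries (SD, n = 3 each). *Carm1*, the arginine methyltransferase with the smallest p of the list, had a log2 fold change of 0.17 (adjusted p = 0.263, edgeR).

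Among 4 further genes with an NCOA name, 1 passed, against 4.28% of all tested genes. *Ncoa4*, which was named as an androgen receptor coactivator and is also the receptor that delivers ferritin to lysosomes, rose from 30.2 ± 0.771 to 38.2 ± 0.984 CPM (SD, n = 3 each). This was a log2 difference of 0.34 ± 0.0613 (standard error), and edgeR gave an adjusted p of 0.0228, without overlap of the groups. With any single library left out its adjusted p lay between 0.0552 and 0.0939, and its log2 fold change between 0.32 and 0.36. *Ncoa5*, *Ncoa6* and *Ncoa7* had log2 fold changes of -0.14, 0.06 and -0.08 and did not pass.

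Other subunits of the NCoR complex were *Hdac3*, *Tbl1x* and *Tbl1xr1*. Of these 3, 0 passed with edgeR or DESeq2, against 4.28% of all tested genes with edgeR. *Hdac3*, the histone deacetylase of the complex, had 90.9 ± 0.960 CPM in the control group and 100.2 ± 1.29 CPM in the other group (mean ± SD of 3 libraries each), which is a log2 fold change of 0.14 (95% interval 0.01 to 0.27, unadjusted p = 0.0330, adjusted p = 0.194, edgeR). *Tbl1x* and *Tbl1xr1*, which encode the adaptors that hold the complex together, had log2 fold changes of 0.02 and 0.11 (adjusted p = 0.891 and 0.505, edgeR). Of 11 other corepressor genes 0 passed with edgeR, against 4.28% of all tested genes. *Tle3*, a PPARγ partner that favours white fat genes, had the smallest p (log2 fold change 0.44, adjusted p = 0.171, edgeR). Its adjusted p was 0.0498 with DESeq2 and 0.0498 to 0.388 over the 14 alternatives. *Asxl1* was at -0.01 (adjusted p = 0.970).

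*Med1* was set beside the rest of Mediator. Of 32 further subunit genes 31 were tested, and *Med12l* had too few reads. Against 4.28% of all tested genes with edgeR, 0 of the 31 passed with edgeR or DESeq2. Their median log2 fold change was -0.09, with 20 lower and 11 higher in Ad*Lmo3* libraries, beside 0.00 over all tested genes. An unadjusted p under 0.05 was found in 5 (*Med6*, *Med10*, *Med20*, *Med21* and *Med22*), all with lower values in Ad*Lmo3* libraries, against 20.6% of all tested genes, so that the share was near the background. *Med10* had the smallest p, with 28.5 ± 0.736 and 23.8 ± 0.403 CPM (SD, n = 3 each) and a log2 fold change of -0.26 (adjusted p = 0.0646, edgeR). With library size scaling, which called 767 of all 12766 tested genes, *Med10* and *Med21* passed, *Med10* at 0.0282. Over the 14 alternatives the adjusted p of *Med10* ranged from 0.0282 to 0.222.

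Around the PGC-1 proteins, 9 of 11 relatives and partners were tested and 1 passed, against 4.28% of all tested genes. *Nrf1*, a transcription factor of nuclear-encoded respiratory genes, fell from 29.7 ± 1.21 to 24.0 ± 0.910 CPM (mean ± SD of 3 libraries each), or -0.31 ± 0.0697 (standard error) on the log2 scale, and edgeR gave an adjusted p of 0.0495. It lay at the threshold, and its adjusted p was 0.0506 with RLE scaling and between 0.0856 and 0.175 with any single library left out, in a range of 0.0218 to 0.175 over the 14 alternatives. *Esrra*, the receptor ERRα on which PGC-1 proteins act, had a log2 fold change of 0.29 (95% interval 0.08 to 0.50, adjusted p = 0.129), and *Pprc1*, the third PGC-1 relative, 0.06 (adjusted p = 0.890). *Prdm16* had at most 3 counts in any library.

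Of 24 nuclear receptor genes that use these cofactors, 20 were tested and 2 passed (10%), both higher in Ad*Lmo3* libraries, against 4.28% of all tested genes. *Pparg*, which is also in the list of adipocyte markers, read 377, 367 and 422 CPM in the control group and 494, 534 and 604 CPM with *Lmo3*, and rose by 0.48 on the log2 scale (adjusted p = 0.0316, edgeR). *Nr1h3*, the liver X receptor LXRα, rose from 97.5 ± 7.88 to 127 ± 7.67 CPM (SD, n = 3 each), by 0.39 on the log2 scale (adjusted p = 0.0405, edgeR). With library size scaling the list's calls were 1 higher (*Pparg*) and 1 lower (*Nr1d2*), and DESeq2 called 3 higher and 1 lower. Over all 12766 tested genes library size scaling called 266 higher and 501 lower, and DESeq2 672 higher and 438 lower. *Nr1d2*, the circadian repressor REV-ERBβ, had 56.0 ± 3.18 and 45.5 ± 4.47 CPM without overlap, and a log2 fold change of -0.30 (adjusted p = 0.0920, edgeR, and 0.0383 to 0.280 over the 14 alternatives). *Rxra*, the partner of both PPARγ and LXRα, had 166 ± 15.1 and 211 ± 12.3 CPM and an adjusted p of 0.0652, and *Nr3c1*, the glucocorticoid receptor, 262 ± 22.4 and 310 ± 8.13 CPM (adjusted p = 0.131). The median log2 fold change of the list was 0.10. With any single library left out *Nr1h3* no longer passed (adjusted p 0.0589 to 0.134), and *Pparg* passed only without Ad*Lmo3* replicate 1 (0.0254, otherwise 0.0710 to 0.108). *Nr1h3* also missed the threshold with library size scaling (0.0639), with a range of 0.000965 to 0.134 over the 14 alternatives. In contrast, *Rxra* passed with DESeq2 (0.00472) and, at 0.04999, without the low count filter, in a range of 0.00472 to 0.217. The summed adipocyte markers moved with the group here as well, and their part in these values was not tested.

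**Figure D4:**
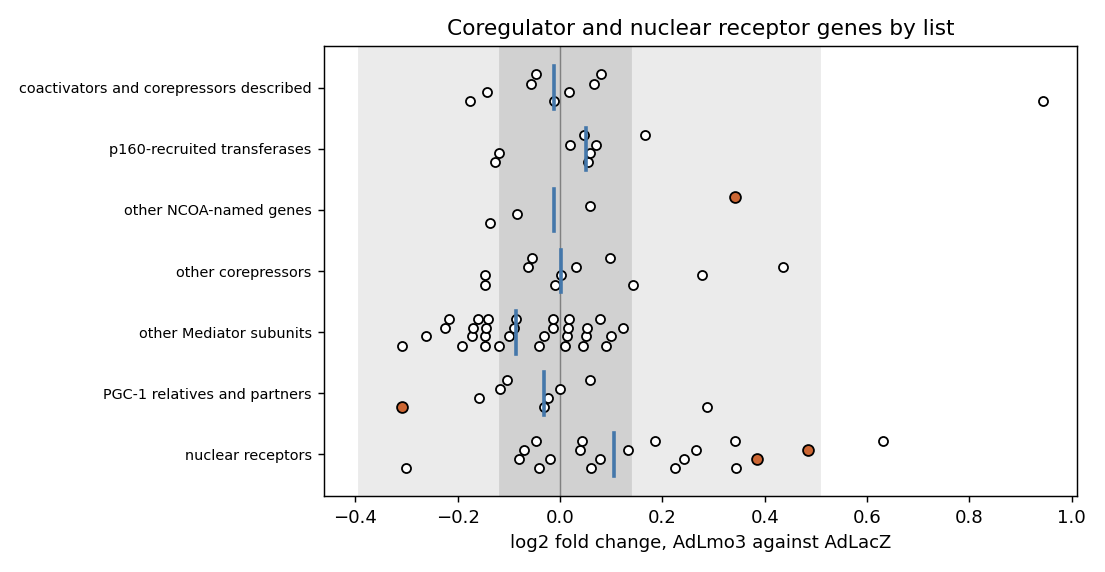
Log2 fold change of AdLmo3 against AdLacZ libraries for each tested gene of 7 lists, filled where edgeR's adjusted p was under 0.05, with a blue line at each list's median. The dark band holds the middle 50% of all tested genes (-0.12 to 0.14) and the light band the middle 90% (-0.39 to 0.51), and 4 genes are filled.

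**Figure D5:**
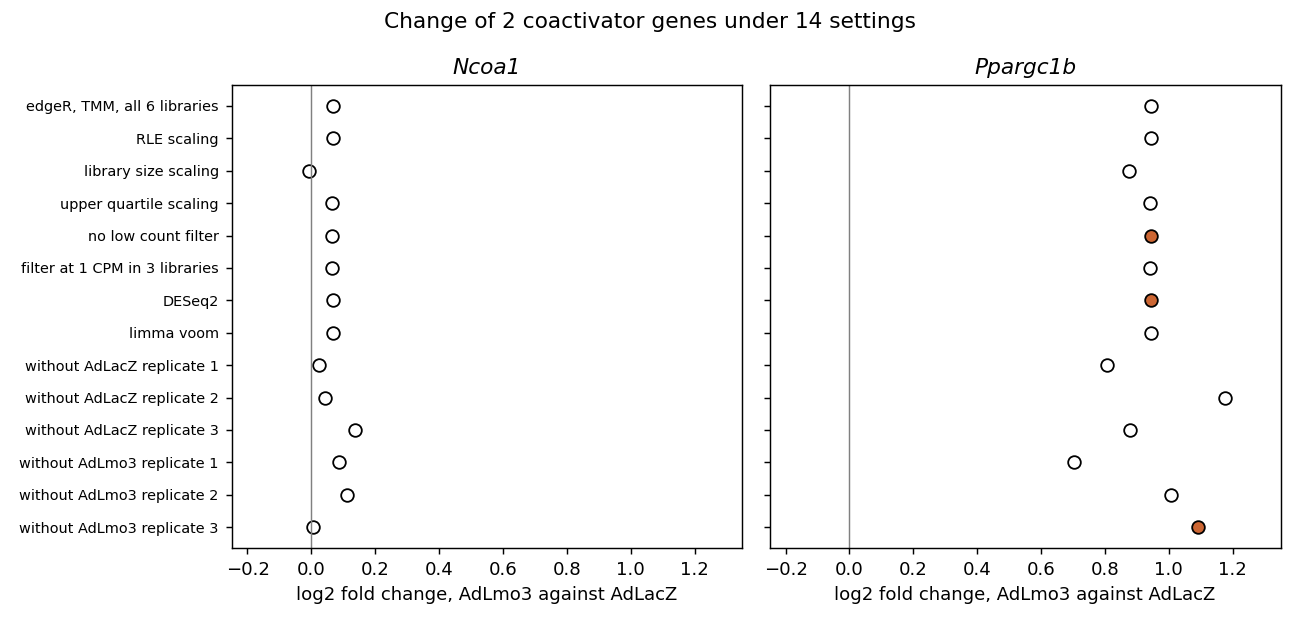
Log2 fold change of *Ncoa1* and *Ppargc1b* with all 6 libraries and under 13 of the 14 alternatives (scaling, filter, test or left-out library, while the fit with a replicate block is not drawn), filled where the adjusted p was under 0.05. *Ncoa1* stays between -0.01 and 0.14 and *Ppargc1b* between 0.70 and 1.18, with 3 filled points.

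The plot of settings sets *Ncoa1* and *Ppargc1b* side by side. No alternative brought *Ncoa1* near the threshold, with adjusted p-values from 0.542 to 0.984, while *Ppargc1b* remained positive and crossed the threshold in 3.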

How the data were processed

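RNA-Seq counts of 3 AdLacZ and 3 Ad*Lmo3* libraries of 3T3-L1 adipocytes were analysed. Per the labels, libraries were made with a NEBNext Ultra II kit and sequenced as single reads of 75 bp. Per the submitters' processing notes, STAR 2.5.0b and mm10 were used. The notes also list DESeq2 1.6.3, and the study tested differential expression with DESeq2. The authors deposited raw read counts per gene symbol, not normalized. The counting program, strand setting and annotation are not given in the sources used here, so reads of overlapping genes on opposite strands cannot be told apart. Reads on no gene (7.15% to 8.94%) or several genes (0.476% to 0.543%) were left out.

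The 12766 genes that passed filterByExpr were tested by the quasi-likelihood test of edgeR 4.0.16 (R 4.3.3) with TMM scaling and group as the only term, and p-values were adjusted by Benjamini and Hochberg's method over all of them (threshold 0.05). Standard errors and 95% intervals came from the F statistic and its degrees of freedom. CPM are TMM-normalized, and CPM per kb use the union of GENCODE M21 exons (GRCm38), with 23384 of 24421 symbols matched. The edgeR fit was tested on simulated counts with 1 common dispersion for all genes, in which 200 genes were changed by 1 on the log2 scale. It called 186 of these and 8 others. Smaller changes, gene-specific dispersion, ratios and levels were not simulated. No replicate pair agreed within sampling noise (chi-square per degree of freedom 22.9 to 61.6).

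Alternatives were DESeq2 1.42.0, voom (limma 3.58.1), other scalings and filters, a replicate block and each library left out. The members and lists were chosen with earlier results of these data known. The genes named were the members, each list's called genes (or that with the smallest p), direct partners, and the 3 genes most like *Ncoa1* and *Ppargc1a*. Other list genes (*Ncoa5* to *Ncoa7*, *Esrra*, *Pprc1*, *Prdm16*, *Nr1d2*, *Tbl1x*, *Tbl1xr1* and Mediator subunits beside *Med10*) were named after their values were seen. 1 gene of the partner lists is not reported here.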

Additional observations from a re-analysis of the deposited data

How the results depend on the processing

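The number of tested genes called was 547, 767 with library size scaling, 1110 with DESeq2, and between 77 (without AdLacZ replicate 3) and 501 with 1 library left out. It was 238 without AdLacZ replicate 2, 284 without AdLacZ replicate 1, 152 without Ad*Lmo3* replicate 2 and 289 without Ad*Lmo3* replicate 3. The cause was not tested, beyond the fewer samples of these fits. Of the 9 coregulator genes, 1 was called (*Ppargc1b*) without a filter on low counts (log2 fold change 0.9437) and with DESeq2 (0.9449), and 0 to 1 with 1 library left out (0.7047 to 1.175).

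With library size scaling *Ncoa1* turned to -0.0071, *Ncor1* to -0.0567, *Crebbp* to -0.0151, *Ep300* to -0.0269, *Wdr60* to -0.0191, *Gpatch2* to -0.0023 and *Zfp874a* to -0.0135. The median over all tested genes was -0.0719 with this scaling and 0.0014 with TMM. With 1 library left out, log2 fold changes that changed sign ranged from -0.068 to 0.0278 (*Ncoa2*), -0.0964 to 0.0264 (*Ncoa3*), -0.0249 to 0.0457 (*Ncor1*), -0.0392 to 0.1456 (*Crebbp*), -0.0321 to 0.137 (*Ep300*), -0.0844 to 0.0398 (*Asxl1*), -0.0028 to 0.1219 (*Wdr60*) and -0.0245 to 0.1063 (*Zfp874a*), and the log2 ratio of summed coactivators to corepressors from -0.0155 to 0.0312. *Med1*, *Sra1*, *Gps2*, *Ppargc1a* and *Ppargc1b* kept their sign in all 14 alternatives.

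Counts of called genes moved in 5 lists. DESeq2 called 1 other corepressor and 4 nuclear receptors, and library size scaling 2 Mediator subunits. Among PGC-1 relatives 0 were called with RLE scaling, without a low count filter, with voom and with the replicate block. With 1 library left out, 0 were called among PGC-1 relatives, 0 among other NCOA-named genes and 0 to 1 among nuclear receptors. With the longest transcript as length, levels in CPM per kb were 20.64 for *Ncoa1*, 9.099 for *Ncoa2*, 36.87 for *Ncor1*, 13.31 for *Med1*, 33.53 for *Sra1* and 17.07 for *Gps2*.

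Same-numbered libraries were not taken as pairs, since the labels name no shared day. The correlations of their deviations from the group means were 0.0308, 0.1617 and 0.1659. Between differently numbered libraries they ran from -0.2518 to 0.1429, the highest being Ad*Lmo3* replicate 1 with AdLacZ replicate 2. Whether same-numbered libraries share a batch was not tested. With the replicate block 498 genes were called, 400 of them also called without it, *Ppargc1b* had a log2 fold change of 0.9339 (adjusted p = 0.0765, edgeR), and *Nrf1* missed the threshold (0.0786).

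With 3 libraries a group, permutation of a single ratio cannot give a p under 0.1.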
